A study of Mus musculus with 40 samples.

Results

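The comparison described here is that of the left somatomotor cortex 24 h after the fifth closed-head injury (5xCHI) with the same tissue 24 h after the fourth (4xCHI), which is the state in which the fifth injury was given. By their labels, 4 samples belonged to 5xCHI at 24 h and 3 to 4xCHI at 24 h, together 7 of the 40 deposited samples, and 15224 of 55539 features were abundant enough to test. The 5xCHI samples carried the numbers 11, 12, 33 and 34, and the 4xCHI samples the numbers 24, 25 and 40. All were taken from young adult female 3xTg-AD mice, a line on a C57BL/6J background that carries mutant human transgenes of Alzheimer disease and tauopathy, so the transgenes and the first 4 injuries are common to both groups. Mild injuries were given once daily by weight drop on the closed head under isoflurane anaesthesia, and the whole series follows the first, the third and the fifth injury over 24 h, with Sham mice as the uninjured state. The 5xCHI samples were taken 120 h from the start of the procedure and the 4xCHI samples 96 h from it. Injury number, number of anaesthesia exposures and time from the first injury therefore moved together and cannot be told apart. Only females were sequenced, and by the study's description the samples are separate animals, so p-values rest on the spread between mice.

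Repeated mild head injury deforms tissue without opening the skull. In the hours after an impact, cortical neurons fire abnormally and take up calcium, which switches on immediate early genes such as Fos and Arc. Astrocytes and microglia then take on reactive states over hours to days, while the injury, the handling and the anaesthetic also engage the glucocorticoid stress response. At 24 h the tissue is past the immediate early phase, and heat shock proteins, glial genes and activity-dependent growth factors are the usual readouts.

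Libraries held 20854472 to 23223033 counts in 5xCHI and 18066292 to 20171411 counts in 4xCHI, so every 5xCHI library was deeper, and the exact permutation p of 0.0571 is the smallest that 4 against 3 samples can give. Levels are counts per 1000000 counts of the library (CPM) scaled by trimmed mean of M values (TMM), so depth is divided out. The tissue carried neuronal Snap25, oligodendrocyte Mbp, astrocyte Slc1a2, microglial Csf1r and endothelial Cldn5 in all 7 samples. Sample 11 stood apart: on the first principal component, which held 57.9% of the variance, it lay at -70.9 and the other 6 between -7.9 and 25.5. Its rank correlation with the other 3 5xCHI samples was 0.950 to 0.969, against 0.996 between samples 33 and 34. In sample 11, the 25% of genes with the shortest exon length lay 0.31 log2 units above the 4xCHI mean in the median and the 25% with the longest lay at -0.23, while no other sample passed 0.11 either way. Samples 11 and 12 carried running numbers from 1 to 18 and the other 5 from 19 to 40, and the labels name no batch. Counts for the gene groups described most fully are therefore also given without sample 11 and within the samples numbered 19 to 40.

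In edgeR, no gene differed at an adjusted p under 0.05 between 5xCHI and 4xCHI. Of 15224 genes tested, edgeR's quasi-likelihood F test called 0 (0%) after Benjamini-Hochberg adjustment, with a smallest adjusted p of 0.635. DESeq2, limma-trend and limma voom with sample weights also called 0, and a fit with 1 surrogate variable called 1 (0.00657%). At an unadjusted p under 0.05, edgeR found 649 genes higher (4.26%) and 332 lower (2.18%), 981 in all (6.44%). The counts were 662 higher (4.35%) and 386 lower (2.54%) with DESeq2, and 801 higher (5.26%) and 672 lower (4.41%) with limma voom. Scaling to library size without TMM moved the split to 561 higher (3.68%) and 444 lower (2.92%). The direction also turned on 1 library: without sample 11 the fit gave 353 higher (2.32%) and 420 lower (2.76%). Of the 649 higher genes, 154 were again at p under 0.05 without sample 11 and 40 turned sign, whereas 195 of the 332 lower genes were again at p under 0.05 and 0 turned. Within the samples numbered 19 to 40 there were 448 higher (2.94%) and 468 lower (3.07%). The median log2 fold change of all genes tested was 0.02. None of the genes below therefore counts as changed, and all their p-values are unadjusted edgeR values.

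Promoter letters of 3 genes are shown here because the gene groups they stand for, immediate early genes, chaperones and cholesterol synthesis genes, are 3 of the groups with members that lay lower in 5xCHI. The windows come from RefSeq on GRCm38.p6, run 5′ to 3′ on the gene's strand and hold motif matches in capitals. Fos, an immediate early transcription factor, is shown at chr12:85473731-85473858 on the plus strand with the cAMP response element core TGACG. Hspd1, the mitochondrial chaperonin, is shown at chr1:55088053-55088082 on the minus strand with the heat shock element, here 3 alternating GAA and TTC blocks that begin and end with GAA on either strand, with 2 bases between blocks, and 2 overlapping matches are in capitals. Hmgcs1, an early enzyme of cholesterol synthesis, is shown at chr13:119690184-119690252 on the plus strand with the sterol element TCACNCCAC.
Fos: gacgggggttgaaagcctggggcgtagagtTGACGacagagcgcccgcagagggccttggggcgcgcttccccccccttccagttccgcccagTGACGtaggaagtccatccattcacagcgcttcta
Hspd1: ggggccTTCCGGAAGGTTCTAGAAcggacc
Hmgcs1: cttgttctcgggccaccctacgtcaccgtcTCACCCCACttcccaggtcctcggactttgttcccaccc
Searched on both strands in the 250 bases before the start, TGACG stood in 12 of the 16 immediate early genes with a listed promoter and in 17.8% of all 32851 promoters. The heat shock element stood in 2 of 12 chaperone genes, Hspd1 and Hspe1, which are divergent neighbours, and in 0.466% of all promoters. The sterol element stood in 1 of 13 cholesterol genes and in 1.05% of all promoters. A listed gene counted if any of its promoters held the motif, whereas the shares count single promoters, so these are unlike measures. The matches describe letters and are not binding sites shown in this tissue.

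Across single genes, 343 (2.25%) lay lower in all 4 5xCHI samples than in any 4xCHI sample and 363 (2.38%) lay higher, and 185 of the lower and 175 of the higher ones were also at p under 0.05. Averaged over the 35 splits of 4 against 3 samples, random labels would set the ranges apart, in either direction, for a share of 0.0571 of genes. The lower and higher shares together were below that, so ranges apart do not mark a gene as changed. The 12 of each direction with the smallest p and a mean of at least 5 CPM are plotted by sample in the panels of 24 genes. In bulk tissue, fewer cells of a type and less RNA per cell cannot be told apart.

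**Figure D1:**
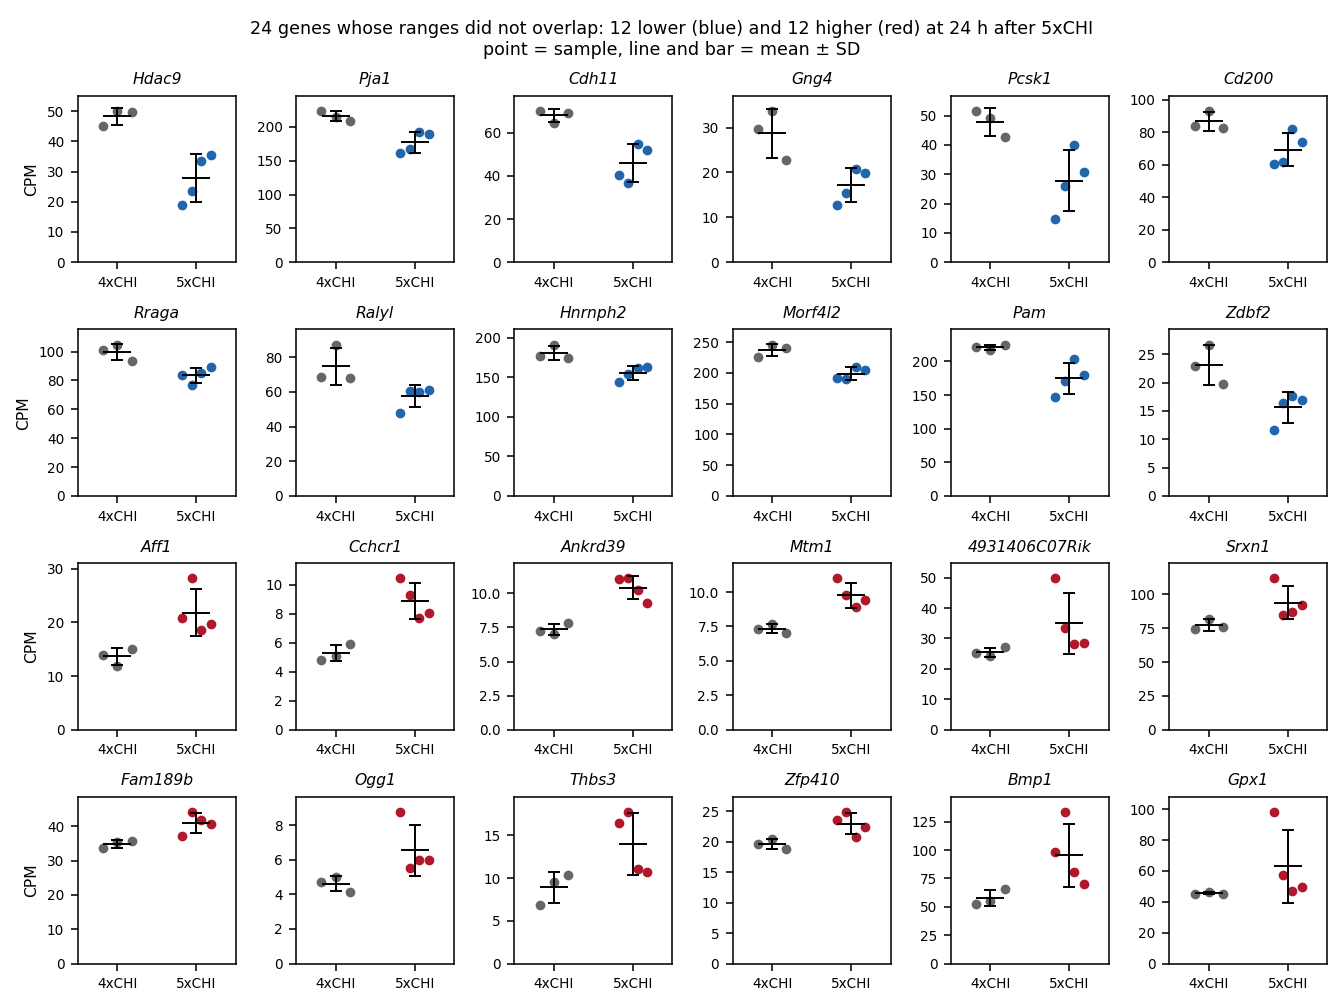
Each panel plots CPM (vertical axis, from 0) of a gene in the 3 4xCHI (grey) and 4 5xCHI (blue, lower; red, higher) samples at 24 h, each point being a sample and the line and bar the mean ± SD. The genes were picked because the ranges did not overlap, and the 5xCHI points spread more than the 4xCHI points in panels such as Hdac9 (18.9 to 35.5 against 45.1 to 50.1 CPM).

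Among the lower genes, Hdac9, a class IIa histone deacetylase that represses activity-dependent transcription in neurons (chromosome 12, 34047580 to 34917095, minus strand, GRCm38), had the smallest p. It measured 18.9, 23.7, 33.5 and 35.5 CPM in 5xCHI samples 11, 12, 33 and 34, and 45.1, 50.1 and 49.7 CPM in 4xCHI samples 24, 25 and 40. All 4 5xCHI samples lay below the 4xCHI range, with samples 11 and 12 lowest, and the means were 27.9 ± 7.9 CPM (SD, n = 4) and 48.3 ± 2.8 CPM (SD, n = 3). The log2 fold change was -0.79 ± 0.19 (SE), -0.65 without sample 11 and -0.50 within samples 19 to 40. Sham samples spanned 39.4 to 50.4 CPM, so the 4xCHI samples lay within the Sham range and all 4 5xCHI samples below it.

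Pcsk1, the proprotein convertase that cuts neuropeptide precursors, measured 14.7, 26.0, 39.8 and 30.8 CPM against 51.6, 49.2 and 42.5 CPM (log2 -0.78 ± 0.21). Pam, the enzyme that amidates peptide hormones, measured 147, 171, 203 and 180 CPM against 221, 217 and 225 CPM (log2 -0.33 ± 0.10). The ranges were apart for both, with sample 11 lowest and sample 33 nearest to 4xCHI.

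Cdh11, a cadherin of excitatory synapses, measured 40.4, 36.7, 54.9 and 51.9 CPM against 70.2, 64.5 and 69.4 CPM (log2 -0.57 ± 0.14). Gng4, a G protein gamma subunit, measured 12.7, 15.5, 20.7 and 19.8 CPM against 29.6, 33.7 and 22.8 CPM (log2 -0.74). Cd200, the neuronal ligand that restrains microglia through Cd200r1, measured 60.1, 61.7, 81.7 and 73.7 CPM against 84.0, 93.2 and 82.7 CPM (log2 -0.32), so sample 33 came within about 1 CPM of the nearest 4xCHI sample. For Cdh11 and Gng4 the samples numbered 33 and 34 were again nearer to 4xCHI than samples 11 and 12.

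The other 6 lower genes are given by their ranges. Pja1, a ubiquitin ligase, had 161 to 192 CPM in 5xCHI against 209 to 224 CPM (log2 -0.28). Rraga, a Rag GTPase that couples amino acids to mTORC1, had 76.5 to 89.1 CPM against 93.6 to 105 CPM (log2 -0.26). Hnrnph2, a splicing regulator, had 144 to 163 CPM against 175 to 192 CPM (log2 -0.22). These are ubiquitous genes whose groups were each tight and apart. Morf4l2, a chromatin protein, had 189 to 210 CPM against 226 to 246 CPM (log2 -0.26). Ralyl, a neuronal RNA-binding protein, had 47.9 to 61.3 CPM against 68.0 to 87.1 CPM (log2 -0.38), and Zdbf2, an imprinted gene, 11.6 to 17.6 CPM against 19.8 to 26.7 CPM (log2 -0.56). Without sample 11 all 12 lower genes were at p under 0.05 again. That was in part fixed by picking them for small p and ranges apart in the same samples, so it is no support. Within samples 19 to 40 their log2 fold changes ran from -0.52 for Gng4 to -0.17 for Hnrnph2 and Cd200.

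Among the higher genes, Aff1, a component of the super elongation complex, had the smallest p. It measured 20.8, 28.2, 18.6 and 19.6 CPM in 5xCHI against 14.0, 11.9 and 15.0 CPM in 4xCHI, with sample 12 highest (log2 0.68 ± 0.19). Cchcr1, a centrosomal protein (chromosome 17, 35517100 to 35531015, plus strand), measured 10.4, 9.26, 7.73 and 8.07 CPM against 4.84, 5.10 and 5.89 CPM (log2 0.75 ± 0.21). Samples 33 and 34 lay above the 4xCHI range by less than samples 11 and 12 for Cchcr1, and the fold changes within samples 19 to 40 were 0.48 for Aff1 and 0.57 for Cchcr1.

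Bmp1, the procollagen C-proteinase (chromosome 14, 70474558 to 70520234, minus strand), measured 98.1, 133, 80.6 and 70.0 CPM against 52.6, 55.5 and 66.0 CPM (log2 0.72 ± 0.23). Thbs3, a thrombospondin, measured 16.4, 17.7, 11.1 and 10.7 CPM against 6.87, 9.52 and 10.3 CPM (log2 0.65). In both, samples 11 and 12 were high and samples 33 and 34 lay nearer to 4xCHI, and within samples 19 to 40 the fold changes were 0.36 and 0.27. Bmp1 in Sham samples spanned 66.7 to 73.8 CPM, so all 3 4xCHI samples lay below the Sham range, sample 34 within it and the other 3 5xCHI samples above it.

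Of the metallothionein and Nrf2 list, 6 of 18 tested were higher at p under 0.05 with a median of 0.17, against 1 higher and a median of -0.04 without sample 11, and its members Srxn1 and Gpx1 had ranges apart. Srxn1, sulfiredoxin, an Nrf2 target that restores peroxiredoxins, measured 112, 84.8, 87.1 and 91.9 CPM against 74.2, 82.0 and 75.8 CPM (log2 0.28). Gpx1, glutathione peroxidase, measured 98.1, 57.4, 47.1 and 49.9 CPM against 45.2, 46.2 and 45.1 CPM (log2 0.47, and 0.08 within samples 19 to 40). Ogg1, the glycosylase that removes oxidised guanine, measured 8.75, 5.50, 5.97 and 5.96 CPM against 4.73, 5.00 and 4.16 CPM (log2 0.50). Sample 11 was highest for each, and for Gpx1 the other 5xCHI samples lay near the 4xCHI ones. The other 5 higher genes, Ankrd39, Mtm1, 4931406C07Rik, Fam189b and Zfp410, had log2 fold changes of 0.50, 0.41, 0.46, 0.23 and 0.22. Ankrd39 was the most even of them, with 9.30 to 11.1 CPM in 5xCHI against 7.00 to 7.82 CPM.

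Groups of related genes were described by 39 lists, each by the members at p under 0.05, the members whose ranges did not overlap, and the median log2 fold change. Over all genes, 4.26% were higher and 2.18% lower at p under 0.05, with a median of 0.02. Ranges were apart for 2.38% of all genes on the higher side and 2.25% on the lower. The lists are to be read beside these values. No list member passed the adjusted threshold. The heat map of list medians by sample shows sample 11 with the highest medians in most glial rows, and the 3 tested choroid plexus genes with a median of 2.61 in 4xCHI sample 24.

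**Figure D2:**
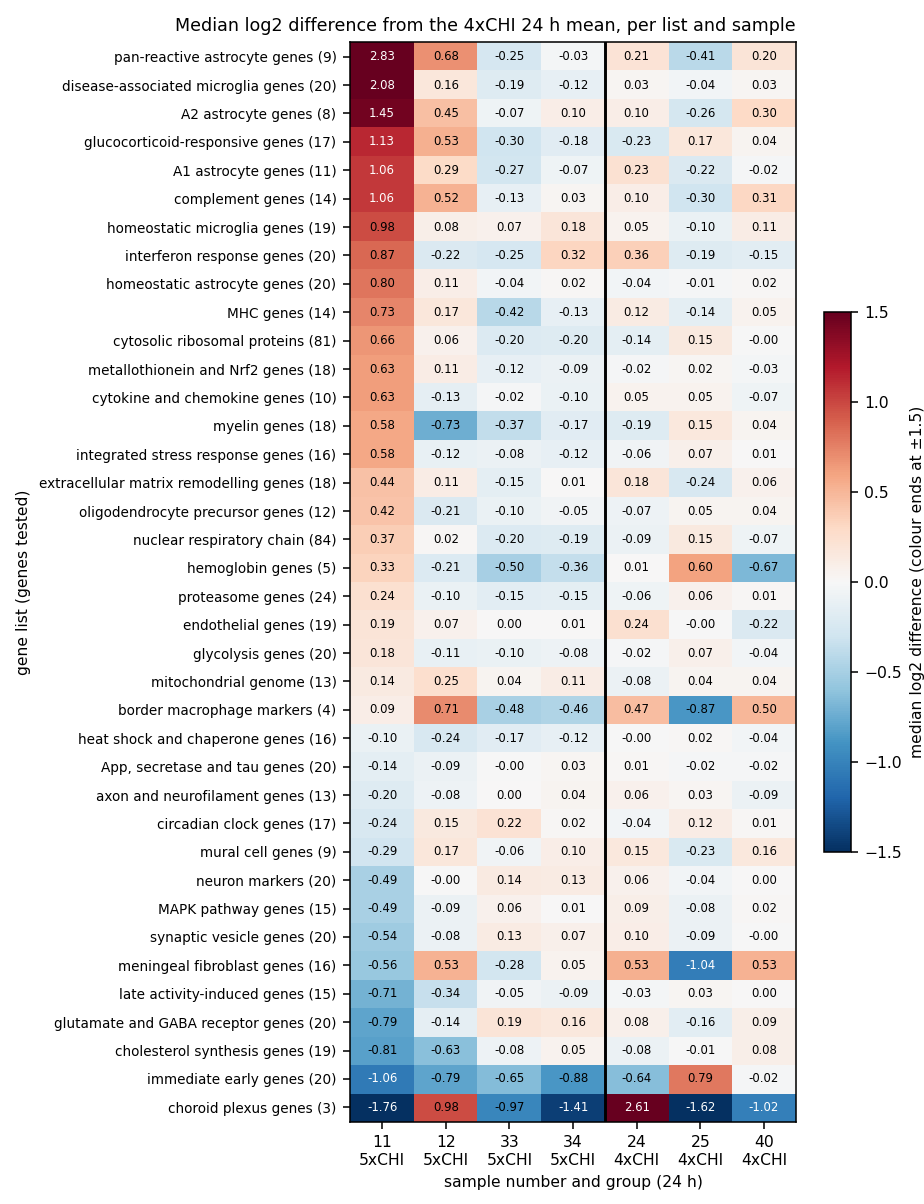
Each cell gives the median over a list's tested genes (number in brackets) of the log2 difference between a sample and the 4xCHI 24 h mean, with samples as columns and lists as rows, ordered by sample 11. Sample 11 stands at 2.83 for pan-reactive astrocyte genes and at -1.06 for immediate early genes, the choroid plexus row swings from 2.61 in sample 24 to -1.76 in sample 11, and the immediate early row is below 0 in all 4 5xCHI samples and positive only in 4xCHI sample 25.

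Immediate early genes, the transcription factors and effectors that neuronal activity switches on within minutes, were lower as a group. Of 20 tested, 14 were lower at p under 0.05 and 0 higher, with a median log2 fold change of -1.05. The count turned on 4xCHI sample 25: without it, 1 of 20 was lower and the median was -0.54. Without sample 11, 10 were lower with a median of -0.87, and within samples 19 to 40, 10 were lower with a median of -0.88. With limma voom and sample weights 2 were lower, with a median of -0.60. Summed over the list, the levels were 737, 936, 1084 and 984 CPM in 5xCHI and 983, 2537 and 1548 CPM in 4xCHI, so sample 24 lay among the 5xCHI samples.

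Fos measured 9.50, 15.4, 13.3 and 9.61 CPM in 5xCHI against 11.8, 98.1 and 38.2 CPM in 4xCHI, for a log2 fold change of -2.05 ± 0.75, or -1.08 without sample 25. Egr2, a zinc finger factor, measured 1.35, 2.52, 3.52 and 1.80 CPM against 1.59, 29.1 and 9.55 CPM (log2 -2.55 ± 0.81). Arc, which regulates AMPA receptor uptake, measured 41.2, 118, 116 and 123 CPM against 68.3, 471 and 301 CPM (log2 -1.49). In each of the 3, 4xCHI sample 24 fell inside the 5xCHI range and sample 25 was the highest of the 7.

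Egr1 measured 66.8, 175, 265 and 210 CPM against 212, 534 and 305 CPM (log2 -0.97), and the orphan receptor Nr4a1 26.2, 58.6, 55.5 and 51.1 CPM against 54.3, 240 and 106 CPM (log2 -1.48). The groups overlapped for both. Of the 20, Egr3 and Nr4a3 alone had ranges that did not overlap, and they were named after their values were seen. Egr3 measured 49.1, 107, 131 and 139 CPM against 161, 168 and 168 CPM, and Nr4a3 12.5, 16.6, 19.7 and 16.4 CPM against 20.6, 50.04 and 26.9 CPM. Sham samples spanned 18.3 to 73.6 CPM for Fos, so all 4 5xCHI samples lay below the lowest Sham sample, as did 4xCHI sample 24.

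**Figure D3:**
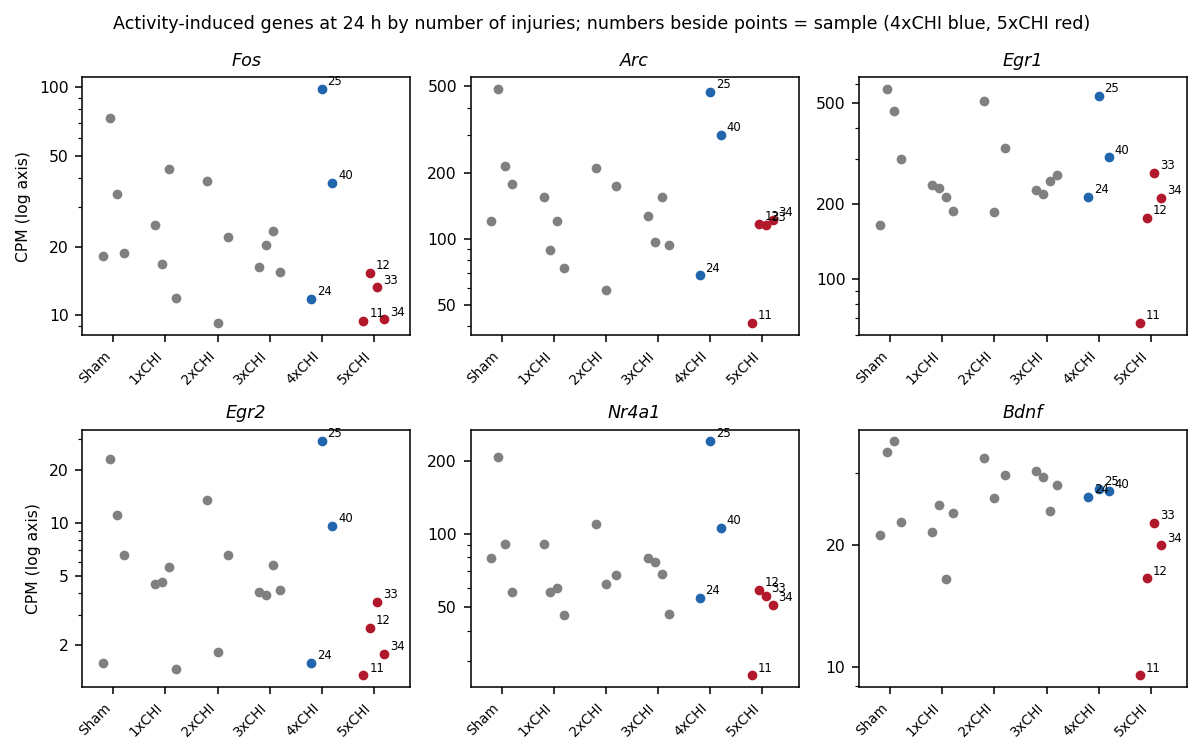
CPM on a log axis for 5 immediate early genes and Bdnf in every 24 h sample and in Sham, by number of injuries, with 4xCHI samples in blue, 5xCHI samples in red and sample numbers beside the points. Fos spans 9.50 to 15.4 CPM in 5xCHI and 11.8 to 98.1 CPM in 4xCHI, and Bdnf lies at 26.2 to 27.5 CPM in 4xCHI, above all 4 5xCHI samples.

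Late activity-induced genes, the effectors that follow hours later, were less uniform. Of 15 tested, 3 were lower at p under 0.05 and 0 higher (median -0.25). Without sample 11 there were again 3 lower (median -0.15), and within samples 19 to 40 there were 3 lower and 1 higher (median -0.06). In 8 of the 15, samples 11 and 12 both lay below the other 5, which held for 16.3% of all genes. The 3 lower over all samples were Pcsk1, Bdnf and Vgf, and all 3 had ranges apart. Bdnf, brain-derived neurotrophic factor, measured 9.54, 16.5, 22.6 and 19.9 CPM against 26.2, 27.5 and 27.0 CPM (log2 -0.65 ± 0.20, and -0.46 without sample 11). Vgf, a neuropeptide precursor that responds to Bdnf, measured 168, 146, 170 and 168 CPM against 203, 238 and 184 CPM (log2 -0.35). Vgf differed little among the 4 5xCHI samples, in contrast to Bdnf, whose level in sample 11 was the lowest.

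Heat shock and chaperone genes, which fold new and damaged proteins, were lower in several of their most abundant members. Of 16 tested, 7 were lower at p under 0.05 and 1 higher, the median was -0.15, and 6 had ranges apart, all lower. Without sample 11 the count was again 7 lower with 0 higher, and within samples 19 to 40 it was 4 lower and 0 higher. Hspa8, the constitutive Hsc70, measured 1219, 1382, 1573 and 1665 CPM against 1777, 1934 and 1745 CPM (log2 -0.32 ± 0.09), and Sham samples spanned 1645 to 1841 CPM. Samples 11, 12 and 33 lay below the Sham range and sample 34 at its lower end.

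Hspd1, whose heat shock element is printed above, measured 139, 124, 152 and 148 CPM against 169, 184 and 162 CPM (log2 -0.29). Dnaja1, an Hsp40 partner of Hsc70, measured 217, 213, 260 and 271 CPM against 280, 304 and 286 CPM (log2 -0.27). Both cytosolic Hsp90 genes were also apart: Hsp90aa1 had 989 to 1172 CPM against 1233 to 1353 CPM (log2 -0.22) and Hsp90ab1 1278 to 1441 CPM against 1503 to 1566 CPM (log2 -0.16). All 4 of these genes had their lowest value in sample 12, whereas Hspa8 was lowest in sample 11.

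Reactive astrocyte and microglial genes were high in sample 11, to a small extent in sample 12, and not in samples 33 and 34. Among pan-reactive astrocyte genes, 9 of 13 could be tested and 7 were higher at p under 0.05, with a median of 1.44. Without sample 11 there were 0 in either direction and a median of 0.19, and within samples 19 to 40 there were 0 higher and 1 lower with a median of -0.24. The list's summed level was 3638 CPM in sample 11, 185 to 317 CPM in the other 5xCHI samples and 207 to 346 CPM in 4xCHI.

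Gfap, the astrocyte intermediate filament, measured 2417, 191, 114 and 130 CPM in 5xCHI against 200, 150 and 246 CPM in 4xCHI. Its log2 fold change was 1.84 ± 0.77 with all samples, -0.46 without sample 11 and -0.72 within samples 19 to 40. Sample 11 was thus the highest of all 39 samples, while samples 33 and 34 lay below all 3 4xCHI samples. Vim, another filament of reactive astrocytes, measured 767, 50.5, 33.0 and 33.4 CPM against 44.8, 27.8 and 51.8 CPM. Serpina3n, a secreted protease inhibitor, measured 309, 16.0, 5.58 and 6.93 CPM against 7.59, 4.58 and 10.5 CPM. Both were high in sample 11 as Gfap was, while sample 12 lay inside the 4xCHI range for Vim and above it for Serpina3n.

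Disease-associated microglia genes, which mark phagocytic microglia around plaques and debris, followed sample 11 as well. Of 24 listed, 20 could be tested, 11 were higher at p under 0.05 and the median was 0.83, whereas without sample 11 the counts were 0 and 0 and the median -0.02. Within samples 19 to 40, 0 were higher and 1 lower (median -0.20). All 20 were above every 4xCHI sample in sample 11, where 41.4% of all genes were. Gpnmb, a glycoprotein of lipid-laden phagocytes, measured 66.0, 1.41, 1.13 and 1.54 CPM against 1.37, 1.37 and 1.09 CPM. Hmox1, the heme-degrading enzyme of the metallothionein and Nrf2 list, measured 176, 4.78, 4.45 and 3.77 CPM against 4.84, 2.21 and 4.80 CPM. C1qc, of the complement initiator C1q, measured 154, 36.7, 22.9 and 26.6 CPM against 24.4, 23.9 and 27.3 CPM. Outside this comparison, sample 10, taken 4 h after 5xCHI, was next highest for Gfap at 1631 CPM, Gpnmb at 20.3 CPM and Hmox1 at 120 CPM.

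**Figure D4:**
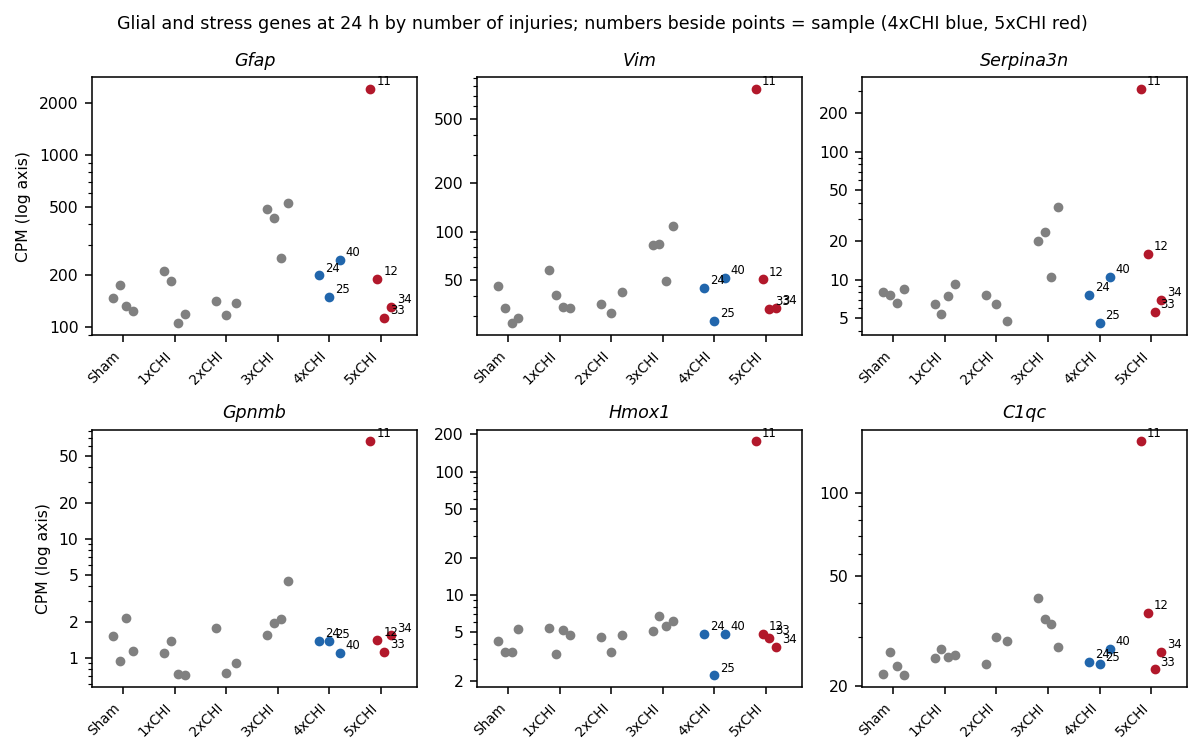
CPM on a log axis for 6 glial and stress genes in every 24 h sample and in Sham, by number of injuries, with 4xCHI samples in blue, 5xCHI samples in red and sample numbers beside the points. For Gfap, sample 11 lies at 2417 CPM and the other 3 5xCHI samples at 114 to 191 CPM, within or below the 150 to 246 CPM of 4xCHI.

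Homeostatic microglia genes also lay highest in sample 11, where their median stood at 0.98 log2 units from the 4xCHI mean, against 0.08, 0.07 and 0.18 in samples 12, 33 and 34. Of 19 tested, 6 were higher at p under 0.05 with a median of 0.39, and 1 was higher with a median of 0.07 without sample 11. Within samples 19 to 40, 2 were higher (median 0.07). Leaving out 4xCHI sample 25 also left 1. Ranges were apart for 3, all higher. Mertk, a receptor for engulfing apoptotic cells, measured 64.7, 63.8, 44.3 and 42.2 CPM against 35.6, 37.6 and 34.7 CPM (log2 0.58 ± 0.19, and 0.25 within samples 19 to 40). Laptm5, a lysosomal protein of immune cells, measured 64.3, 32.2, 26.0 and 27.6 CPM against 24.5, 23.7 and 25.1 CPM (log2 0.62). Csf1r, the receptor on which microglia depend, measured 157, 87.7, 87.3 and 89.6 CPM against 79.8, 69.7 and 86.8 CPM. For Mertk, samples 11 and 12 were both high, while for Laptm5 and Csf1r sample 11 was the highest and sample 33 lay close to 4xCHI.

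Among the other glial lists, homeostatic astrocyte genes had 6 of 20 higher (median 0.28) and 0 without sample 11. Complement genes had 5 of 14 higher (median 0.44) and 0 without sample 11. A1 astrocyte genes had 2 of 11 higher (median 0.38), A2 astrocyte genes 2 of 8 (median 0.60) and interferon response genes 2 of 20 (median 0.17). Without sample 11 these came to 1, 0 and 0, with medians of -0.02, -0.09 and 0.01. Of 27 cytokine and chemokine genes only 10 were abundant enough to test, and 0 were at p under 0.05.

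Neuronal genes moved the other way in sample 11. In that sample 16 of 20 neuron markers and all 20 glutamate and GABA receptor genes lay below every 4xCHI sample, where 37.7% of all genes did. The list medians against the 4xCHI mean were -0.49 and -0.79 there, against 0.13 and 0.16 in sample 34. Gabrb2, a GABA-A receptor subunit, measured 9.12, 44.5, 143 and 111 CPM against 128, 47.1 and 94.8 CPM. Unc13a, which primes synaptic vesicles, measured 107, 382, 450 and 454 CPM against 398, 327 and 413 CPM. Camk2a, the excitatory neuron kinase, measured 2043, 4480, 4787 and 4568 CPM against 3950, 2576 and 4304 CPM, so samples 12, 33 and 34 lay above all 4xCHI samples and sample 11 below them. Over all samples the counts were 0 higher and 1 lower of 20 neuron markers, that being Tubb3 with 181 to 238 CPM against 234 to 277 CPM (log2 -0.29), and 0 of 20 receptor genes, with medians of -0.01 and -0.08. Without sample 11, 1 neuron marker was higher and 0 lower (median 0.05), and 0 receptor genes passed (median 0.07). Within samples 19 to 40, 3 neuron markers were higher and 0 lower (median 0.12), and 4 receptor genes were higher and 1 lower (median 0.17). The length trend in sample 11 given above moved with these lists, and its part in them was not tested.

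Glucocorticoid-responsive genes, the targets of the stress hormone receptor, were high in samples 11 and 12 together. Of 17 tested, 6 were higher at p under 0.05 and 0 lower (median 0.28), and without sample 11 there were 3 higher (median 0.08). In 10 of the 17, samples 11 and 12 both lay above the other 5 samples, which held for 16.4% of all genes, and in 0 of the 17 did both lie below. Within samples 19 to 40 there were 0 higher and 2 lower with a median of -0.26.

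Plin4, a lipid droplet coat protein, measured 80.8, 50.6, 4.26 and 6.71 CPM against 5.66, 5.42 and 4.80 CPM (log2 2.75 ± 0.76, but 0.05 within samples 19 to 40). Fkbp5, the co-chaperone that feeds back on the glucocorticoid receptor, measured 70.7, 67.4, 22.9 and 25.8 CPM against 24.3, 23.5 and 18.9 CPM (log2 1.07 ± 0.34, and 0.12). Sult1a1, a phenol sulfotransferase, measured 37.7, 29.0, 5.63 and 6.67 CPM against 7.09, 6.00 and 7.33 CPM (log2 1.54, and -0.16). Hif3a, named after its values were seen, had 31.6 and 24.4 CPM in samples 11 and 12 against 5.22 to 7.46 CPM in the other 5. Samples 33 and 34 thus resembled 4xCHI for all 4 genes, and the 2 high values were those of the lower sample numbers. For Plin4, samples 11 and 12 were the highest of all 39, next to 37.5 to 42.2 CPM in the 2 samples taken 4 h after 3xCHI and up to 50.5 CPM at 4 h after 5xCHI.

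Cholesterol synthesis genes mirrored this. Of 19 tested, 8 were lower at p under 0.05 and 0 higher, with a median of -0.23, and 4 had ranges apart. In 15 of the 19, samples 11 and 12 both lay below the other 5 samples, which held for 16.3% of all genes. The count fell to 0 without sample 11 (median -0.19), to 1 without sample 12, to 2 without sample 40, to 4 without sample 25 and to 0 within samples 19 to 40 (median -0.03).

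Hmgcs1, whose sterol element is printed above, measured 131, 136, 279 and 291 CPM against 291, 266 and 309 CPM (log2 -0.46). Sqle, squalene epoxidase, measured 25.9, 26.8, 47.6 and 48.9 CPM against 51.8, 51.0 and 56.1 CPM (log2 -0.51). Cyp51, lanosterol demethylase, measured 32.8, 40.4, 57.2 and 60.5 CPM against 61.4, 65.6 and 68.3 CPM (log2 -0.45). Sqle and Cyp51 were apart, with samples 33 and 34 just under the 4xCHI range, while for Hmgcs1 those samples lay inside it. Sample number moved with both lists, and within this pair of groups it cannot be told apart from the spread among 5xCHI samples, since all 4xCHI samples were numbered above 18. With the number range as a covariate over all 39 samples, 3 glucocorticoid-responsive genes were higher (median 0.25) and 3 cholesterol genes lower (median -0.20).

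**Figure D5:**
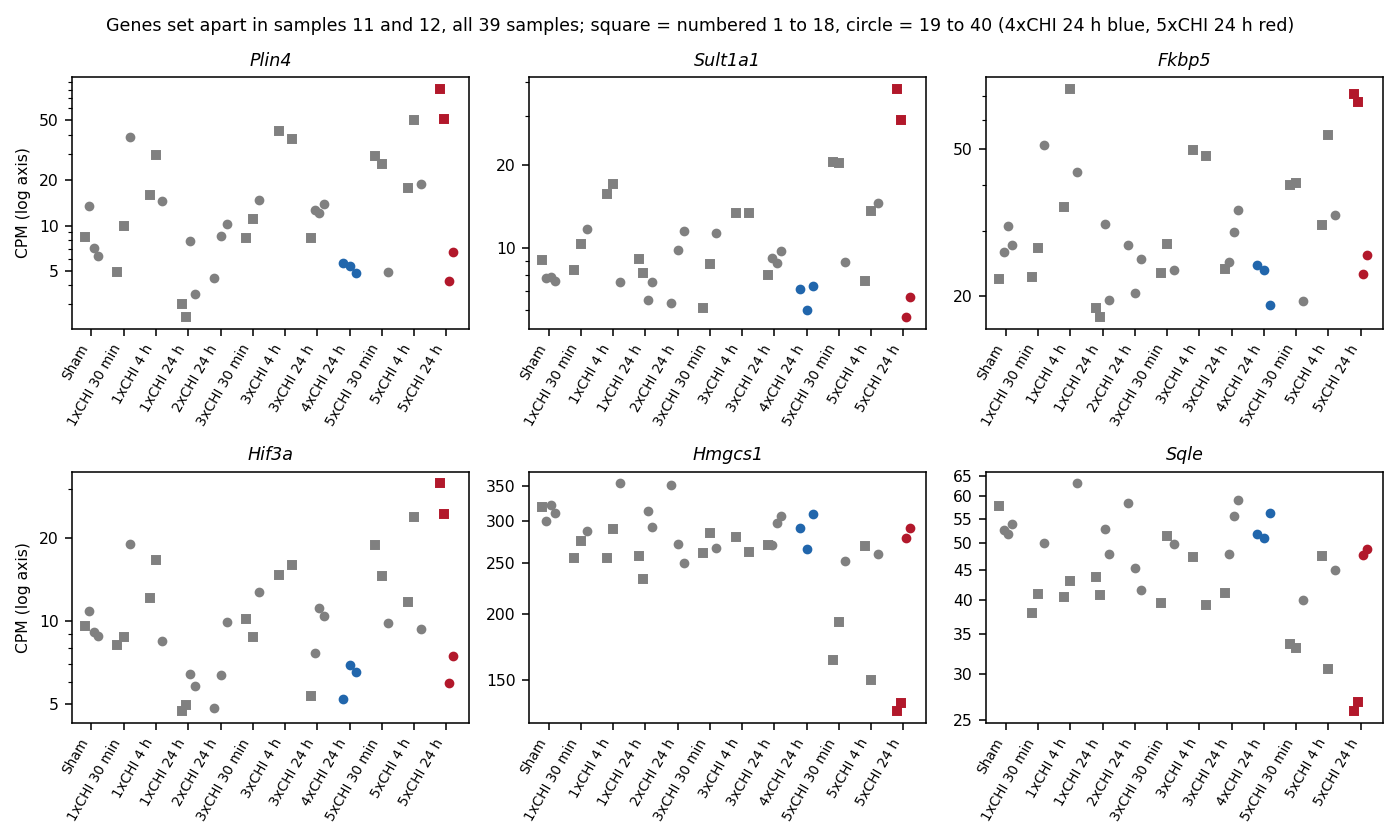
CPM on a log axis for 4 glucocorticoid-responsive and 2 cholesterol synthesis genes in all 39 samples by group, with squares for samples numbered 1 to 18 and circles for 19 to 40, 4xCHI 24 h in blue and 5xCHI 24 h in red. Both red squares lie apart from both red circles, at 50.6 and 80.8 CPM against 4.26 and 6.71 CPM for Plin4 and at 131 and 136 CPM against 279 and 291 CPM for Hmgcs1.

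Myelin genes set sample 11 apart from the other 3 5xCHI samples. Of 18 tested, 2 were lower at p under 0.05 with a median of -0.05, while without sample 11 there were 9 lower with a median of -0.42, and without sample 12 there were 0 lower with a median of 0.08. Within samples 19 to 40, 5 were lower (median -0.28). Against every 4xCHI sample, 16 of the 18 lay lower in sample 12, 17 in sample 33 and 6 in sample 34, where 30.5%, 24.4% and 23% of all genes did. In sample 11, 16 of the 18 lay higher, where 41.4% of all genes did. Mbp, myelin basic protein, measured 4149, 2019, 1863 and 2067 CPM against 2078, 2821 and 2371 CPM. Opalin, a membrane protein of myelinating oligodendrocytes, measured 19.6, 6.40, 16.6 and 17.9 CPM against 21.9, 26.8 and 23.1 CPM (log2 -0.66). Ugt8a, which makes the myelin lipid galactosylceramide, measured 32.3, 19.2, 34.9 and 43.3 CPM against 41.5, 45.5 and 49.0 CPM (log2 -0.48). Opalin was apart, and for both Opalin and Ugt8a sample 12 was lowest. Mbp in samples 12, 33 and 34 lay below all 3 4xCHI samples, sample 34 narrowly.

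A few metabolic and axonal genes differed evenly across all 4 5xCHI samples. Gap43, the growth cone protein, measured 118, 111, 116 and 125 CPM against 147, 155 and 148 CPM (log2 -0.35, and -0.33 within samples 19 to 40). Ldha, which makes lactate, measured 165, 152, 173 and 189 CPM against 207, 213 and 208 CPM (log2 -0.30). Sdha, of respiratory complex II, had 304 to 323 CPM against 340 to 382 CPM (log2 -0.19), and Ndufs1, of complex I, 115 to 132 CPM against 144 to 153 CPM (log2 -0.24). All 4 were apart. Counting them, 2 of 13 axonal, 1 of 20 glycolysis and 2 of 84 nuclear respiratory chain genes lay apart and lower. Over all genes the share was 2.25%, and the respiratory chain genes were near it. At p under 0.05, 0 axonal genes were higher and 1 lower, and 2 glycolysis genes were higher and 1 lower. Of the 84 nuclear respiratory chain genes, 0 were higher and 3 lower (median 0.02). For the respiratory chain the count turned on sample 11: there were 10 lower without it (median -0.14) and 12 lower within samples 19 to 40 (median -0.21).

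Vascular and matrix genes held few differences as groups. Of 19 endothelial genes, 9 lay above every 4xCHI sample in sample 11 and 7 in sample 12, where 41.4% and 31.5% of all genes did, and their summed levels overlapped between 5xCHI and 4xCHI. Of 9 mural cell genes, 1 lay above and 4 below every 4xCHI sample in sample 11, where 41.4% and 37.7% of all genes did. Col4a1 and Col4a2, the basement membrane collagens, measured 55.2, 67.3, 39.7 and 36.7 CPM against 41.0, 32.8 and 34.6 CPM (log2 0.46) and 53.4, 84.5, 49.9 and 53.0 CPM against 43.8, 41.5 and 45.1 CPM (log2 0.47). Col4a2 was apart and Col4a1 was not. The endothelial genes Ly6c1 and Mfsd2a, the latter a lipid transporter of the blood-brain barrier, had 39.9 and 43.1 CPM and 34.7 and 26.6 CPM in samples 11 and 12, against 17.4 to 23.1 CPM and 11.3 to 13.7 CPM in the other 5. The lists held 3 higher of 18 matrix genes and 2 higher of 19 endothelial genes. Without sample 11 there were 2 higher and 1 lower matrix genes and 0 endothelial genes, and within samples 19 to 40 there were 0 higher and 2 lower matrix genes and again 0 endothelial genes. With all samples, other lists with 0 or 1 gene at p under 0.05 were ribosomal proteins (81 genes), the mitochondrial genome (13), synaptic vesicle genes (20), MHC genes (14), MAPK genes (15), integrated stress response genes (16), circadian clock genes (17), App, secretase and tau genes (20), oligodendrocyte precursor genes (12) and mural cell genes (9). Of these lists, ranges were apart for 3 lower and 1 higher of 20 App, secretase and tau genes (median -0.06). They were also apart for 2 of 13 mitochondrial genome genes, both higher (median 0.12), and for 1 lower synaptic vesicle gene. The rest had 0 apart, and over all genes 2.25% were apart and lower and 2.38% apart and higher. Proteasome genes had 0 higher and 1 lower of 24 (median -0.03), but 8 lower without sample 11 (median -0.15) and 7 lower within samples 19 to 40 (median -0.16). Ribosomal protein genes had 2 of 81 lower without sample 11 and 6 lower within samples 19 to 40, where their median was -0.21 against 0.12 with all samples.

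The dissection could carry along other cells, whose markers varied widely between samples. Choroid plexus genes, of which 3 of 10 could be tested, summed to 20.3, 424, 43.1 and 21.4 CPM in 5xCHI and 905, 12.3 and 18.9 CPM in 4xCHI. Ttr, transthyretin of the choroid plexus, measured 383 CPM in sample 12 and 785 CPM in sample 24, against 6.26 to 34.5 CPM in the other 5. None of the 3 choroid plexus genes was at p under 0.05 with all samples (median -1.61), and all 3 were lower within samples 19 to 40 (median -2.63), where sample 24 was 1 of the 3 4xCHI samples. Sums for 16 meningeal fibroblast genes were 678 to 1424 CPM against 416 to 1105 CPM, and for 5 hemoglobin genes 126 to 226 CPM against 116 to 277 CPM. Border macrophage markers, 4 of 8 tested, summed to 8.4 to 18.4 CPM against 6.2 to 16.8 CPM. The 0 of 19 infiltrating leukocyte markers that could be tested summed over the list to 2.0 to 4.6 CPM in all 7 samples, sample 11 included. Sample 25, which was highest for the immediate early genes, had the lowest meningeal and border macrophage sums, and their part in that result was not tested.

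The same 24 h step can be set beside that of the third injury (3xCHI against 2xCHI) and of the first (1xCHI against Sham), which share no samples with it. The change after the fifth injury minus that after the third was called for 0 of 15224 genes (0%) by edgeR with Benjamini-Hochberg adjustment, with 495 higher and 341 lower at an unadjusted p under 0.05 (5.49% in all). DESeq2 called 3 (0.0197%), and limma voom with sample weights called 146 (0.959%), 79 higher and 67 lower. The 3 of DESeq2, named after their values were seen, were Gm32200, Nkain2 and Plb1, with differences of 1.69, -0.55 and 1.85 on the log2 scale. The change after the fifth injury minus that after the first was called for 0 genes (0%) by edgeR and 2 (0.0131%) by limma voom, with 351 higher and 250 lower at an unadjusted p under 0.05 in edgeR (3.95% in all).

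Of the 12 named genes that were lower after the fifth injury, 8 had log2 values above 0 for the third (median 0.03) and 3 for the first (median -0.05). Of the 12 that were higher, 8 had values below 0 for the third (median -0.05) and 1 for the first (median 0.13). These genes were chosen for their fifth-injury values, which the differences from the third contain, so the differences are descriptions. Hdac9 stood at -0.79 for the fifth, 0.35 for the third and -0.29 for the first, and the difference between the fifth and the third was -1.14 ± 0.27 (SE). Cdh11 stood at -0.57, 0.25 and -0.28, with a difference of -0.82 ± 0.20 between the fifth and the third. Pam stood at -0.33, 0.17 and -0.15, with a difference of -0.50 ± 0.14. Among the higher genes, Bmp1 stood at 0.72, -0.40 and 0.25, with a difference of 1.12 ± 0.32 from the third, and Cchcr1 at 0.75, -0.44 and 0.34, with a difference of 1.19 ± 0.29. All adjusted p-values from edgeR for these differences were 0.374 or more. For Hdac9 the result turned on the method, as it was among the 146 genes that limma voom with sample weights called. There its difference was -1.06, with an adjusted p of 0.00602.

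Levels in the groups behind those values show where the steps began. Hdac9 spanned 28.4 to 42.5 CPM after 2xCHI, 36.3 to 52.5 CPM after 3xCHI and 45.1 to 50.1 CPM after 4xCHI, and the 4 5xCHI samples at 18.9 to 35.5 CPM overlapped the 2xCHI range and lay below that of 3xCHI. Gfap spanned 118 to 141 CPM after 2xCHI and 253 to 528 CPM after 3xCHI, a log2 value of 1.68, so by 4xCHI it had come to 150 to 246 CPM. For Gfap the difference between the fifth and the third step was 0.16, a value that rests on sample 11. Median log2 values of the immediate early list were -1.05 for the fifth injury, -0.11 for the third and -0.48 for the first, and single values for Fos were -2.05, -0.30 and -0.57. Without 4xCHI sample 25 the fifth-injury values were -0.54 for the list and -1.08 for Fos, so the list's median was then near that of the first injury.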

How the data were processed

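Bulk RNA was sequenced from left somatomotor cortex of 40 female 3xTg-AD mouse samples. The authors deposited 1 table of estimated counts for 55539 features, of which 4.461% of values were not whole. The column names carry the ending of Salmon's gene-level output, the version and settings are not given in the sources used here, the submitters' processing notes name mm10, and the mouse IDs match GENCODE M21. Counts were rounded, and sample 30 was left out, as the series description states, leaving 39. Columns without a mapped sample numbered 0. A feature was kept where at most 4 of the 39 samples fell below 10 counts, which left 15224.

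All 39 samples in 12 groups entered 1 edgeR 4.0.16 quasi-likelihood fit (TMM, no covariates, Benjamini-Hochberg, threshold 0.05) in R 4.3.3. Alternatives used DESeq2 1.42.0, limma 3.58.1 and sva 3.50.0, 20 in all. Scripts were tested on simulated data. Library values were compared by two-sided exact permutation over 35 splits. The tables were made in Python 3.11.15 with pandas 2.3.3, scipy 1.17.1 and matplotlib 3.10.9. Depth is given as total counts per sample.

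Named genes were those past the adjusted threshold (0), the 12 higher and 12 lower genes of smallest p with ranges apart and a mean of at least 5 CPM, and from each of 39 lists the most abundant, lowest-p and most variable members, with 8 tissue checks. The comparison, members and lists were chosen with earlier results of these data known. Exceptions are marked as named after their values were seen. Some items are not reported here.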

Additional observations from a re-analysis of the deposited data

Results flagged for a closer look

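Of 128 gene levels, list levels and library values tested in the 4 5xCHI samples, 29 had a highest or lowest sample whose gap to the next exceeded Dixon's critical value of 0.829 for 4 samples. Chance alone picks out about 1 in 20 groups of values not chosen for their spread. The flagged values were levels of 19 genes and 10 lists. In 23 the lone sample was 11, and in 6 it was 12. The naming rule takes the most variable member of each list, so lone samples were in part selected for and the 29 cannot be read against that rate. Values also share genes and libraries.

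Sample 11 was high for Gfap (2417 CPM), Vim (767 CPM), Serpina3n (309 CPM), Gpnmb (66.0 CPM), Hmox1 (176 CPM), C1qc (154 CPM), Laptm5 (64.3 CPM), Csf1r (157 CPM), Mbp (4149 CPM), Ogg1 (8.75 CPM) and Hba-a1 (55.7 CPM), and low for Arc (41.2 CPM), Ralyl (47.9 CPM) and Camk2a (2043 CPM). Its summed levels were high for pan-reactive astrocyte genes (3638 CPM), A2 astrocyte genes (126 CPM), homeostatic astrocyte genes (13462 CPM), homeostatic microglia genes (1050 CPM), complement genes (801 CPM), myelin genes (10807 CPM), integrated stress response genes (1052 CPM), metallothionein and Nrf2 genes (3623 CPM) and proteasome genes (2435 CPM).

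Sample 12 was low for Vgf (146 CPM) and Hsp90aa1 (989 CPM) and high for Col4a2 (84.5 CPM), Ttr (383 CPM), Kl (11.0 CPM) and the summed choroid plexus genes (424 CPM).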

How the results depend on the processing

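The count of genes at an adjusted p under 0.05 between 5xCHI and 4xCHI was 0 under every alternative except 1 surrogate variable, which called 1 gene (Sorcs1, log2 0.52, named after its values were seen), and it was 0 without each sample in turn. For the fifth-injury minus the third-injury change, the surrogate variable called 1 (Ldb2), DESeq2 3 and limma voom with sample weights 146, and for the fifth minus the first limma voom called 2. Higher genes at an unadjusted p under 0.05 numbered 978 without a filter, 166 with only the compared groups fitted and 412 with sample range as a covariate, and 353 (without sample 11) to 1108 (without sample 34) when each sample was left out. Lower genes numbered 609 with the surrogate variable, 672 with limma voom and 185 with only the compared groups, and 204 (without sample 12) to 583 (without sample 33) when each sample was left out.

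Log2 fold changes turned sign for Gfap (-0.64 with limma voom, -0.72 within samples 19 to 40, -0.46 without sample 11, up to 2.20 without another), Vim (-0.28, -0.33 and -0.099, up to 2.77), Serpina3n (-0.16 with limma voom, -0.29 within samples 19 to 40), and, within samples 19 to 40, C1qc (-0.038), Sult1a1 (-0.16), Ly6c1 (-0.016) and Mfsd2a (-0.11). For the 63 genes whose fold changes were recomputed, the other 1248 values kept their direction and side of the threshold. Genes given by level alone were not among them, and those that turned sign without sample 11 include Mbp (0.06 to -0.30), Gabrb2 (-0.22 to 0.14) and Unc13a (-0.12 to 0.17). Of the list counts 1205 stayed within 1.5 times and 315 moved. The cause of these shifts was not tested. No paired analysis was possible because the samples carry running numbers from 1 to 40 and the groups share none.

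Limits are the 4 against 3 samples, the position of sample 11 and the sample number range that splits 5xCHI but not 4xCHI. The time from the first injury and the number of anaesthesia exposures also differ between the groups by design. Bulk counts carry no cell identity, and genes below the filter, among them all leukocyte markers listed, were not tested.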
